A study of Mus musculus with 8 samples.

Results

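Within mice that carry mucopolysaccharidosis VII (MPS VII), some ascending aortas were recorded as dilated and some were not, and the comparison described here is between these 2 kinds of aorta. Its members were taken from the titles of the arrays: 3 arrays of dilated and 2 of not dilated MPS VII aorta, 5 of the 8 arrays of the study, with 1 mouse per array. The other 3 arrays, from normal mice, give a reference level. All 8 mice were C57BL/6. The dilated aortas came from females of 7.8 months (replicate 1) and 9.1 months (replicate 2) and a male of 6 months (replicate 3). The not dilated aortas came from a female of 5.8 months (replicate 1) and a male of 6.7 months (replicate 2), and the normal aortas from females of 5.8 and 7 months and a male of 6.4 months. The labels give the genotype of both diseased groups only as MPS VII. Disease is thus shared by the groups compared, and dilatation is the difference the labels name. No aortic diameter is given. The titles also carry mouse numbers, which are far higher for the not dilated mice than for the dilated and normal mice. What these numbers stand for is not given, and it cannot be told apart from dilatation here. The mice with dilated aortas included the oldest animals, so age and dilatation are partly mixed.

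MPS VII is a lysosomal storage disease in which the enzyme beta-glucuronidase, encoded by Gusb, is lacking and glycosaminoglycans build up in lysosomes. In the wall of the aorta, stored material accumulates in smooth muscle cells, fibroblasts and macrophages, and the ascending aorta widens as its elastic lamellae fragment. Elastin and collagen give the wall its recoil and strength, matrix metalloproteinases and cathepsins can degrade them, and macrophages are a main source of such proteases.

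Values are fluorescence intensities on a linear scale, 1 per probe and array. Values below 0 and near-identical distributions on all arrays show that background had been subtracted and the arrays normalized before deposit. The 8 arrays had medians of 17.75 to 17.99, and 45.0% to 45.2% of probes on each exceeded 25.6, the bound used here for a signal above background. Smooth muscle markers were bright on every MPS VII array, with Acta2 at 30854 to 53195, Tagln at 2703 to 4571 and Myh11 at 7142 to 15923, although the Cnn1 probe read only 20.4 to 57.3. The sex-linked transcripts Xist and Eif2s3y matched the labelled sex on all 8 arrays. The sample is a whole vessel segment, in which fewer cells of a type and less RNA per cell cannot be told apart.

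No gene passed the threshold between dilated and not dilated aorta. Differences are given as dilated minus not dilated on the scale of log2(intensity + 50), so that 1 stands for a doubling of intensity plus offset, with the standard error (SE) from the linear-model package limma fitted to all 8 arrays, and with p-values adjusted for all 10040 genes tested by the Benjamini-Hochberg method. At an adjusted p under 0.05 limma called 0 genes, and the smallest adjusted p was 0.0509. At an unadjusted p under 0.05 it gave 910 genes (9.06%), of which 560 (5.58%) lay higher in the dilated aortas and 350 (3.49%) lower. With 3 arrays against 2 there are 10 ways to split the arrays, so an exact permutation test of 1 gene cannot go below p = 0.1. Genes whose arrays did not overlap between the groups were therefore also counted directly, whatever the size of the difference. If the labels had no bearing, a share of 0.1 of genes would be apart in each direction, as 1 of the 10 splits gives it. Genes are not independent, and the shares seen were not tested against this. Every dilated array lay above both not dilated arrays for 1373 genes (13.7%) and below both for 1142 (11.4%), 2515 genes (25%) in all. With a log2 difference of at least 1 added, 78 genes (0.777%) lay higher and 18 (0.179%) lower. The median log2 difference over all genes tested was 0.00333, with 50.6% of genes above 0, and the middle 90% of genes ran from -0.41 to 0.49.

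**Figure D1:**
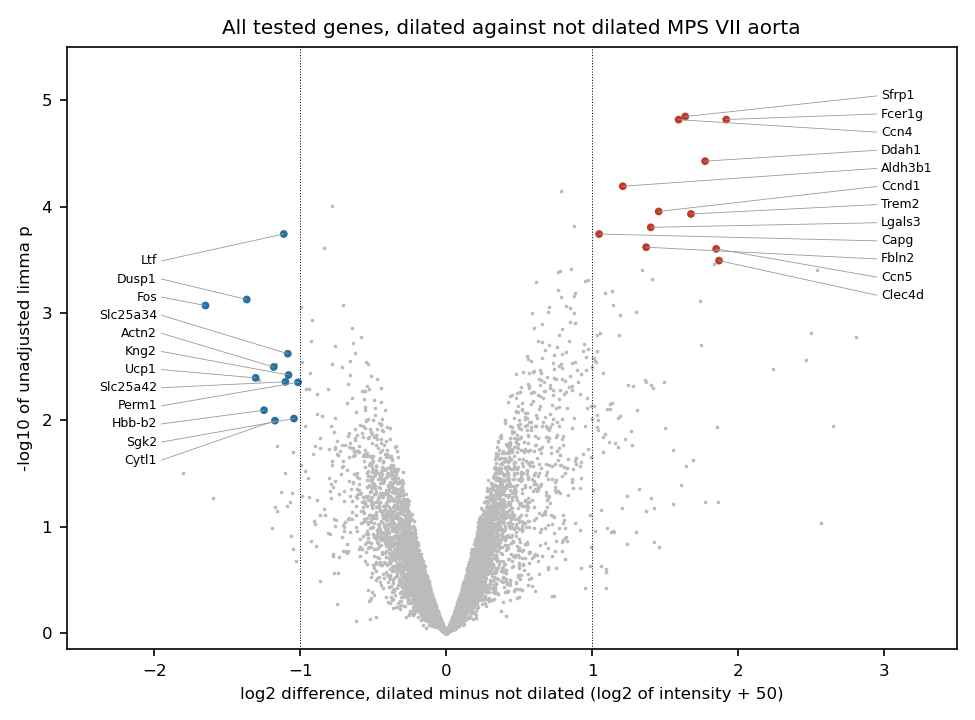
Each point is 1 of the 10040 genes tested, with its log2 difference (dilated minus not dilated, log2 of intensity + 50) on the x axis and -log10 of the unadjusted limma p on the y axis. Red and blue points are the 12 higher and 12 lower genes with the smallest p among those apart by at least 2-fold, and dotted lines mark log2 differences of -1 and 1.

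The genes at the top of this ranking code for an immune receptor chain and for secreted matrix and Wnt-pathway proteins. Sfrp1, Fcer1g and Ccn4 shared the smallest adjusted p of 0.0509 in limma. Fcer1g codes for the signalling gamma chain shared by the activating Fc receptors of macrophages and mast cells. Its intensity was 3074, 3401 and 2810 in the dilated aortas, against 591 and 1022 in the not dilated ones and 389 to 566 in normal aorta. The lowest dilated array was above the highest of the other 5, and the log2 difference was 1.92 (SE 0.23), a 3.78-fold ratio. Sfrp1, a secreted antagonist of Wnt ligands, read 2197, 2067 and 1481 in dilated aortas, 672 and 487 in not dilated and 343 to 359 in normal ones (log2 difference 1.64, SE 0.19). Ccn4, a secreted matricellular protein first described as a target of Wnt1, read 821, 703 and 827 against 191 and 265, with 130 to 201 in normal aorta (1.59, SE 0.19). For both, the groups did not overlap and the not dilated arrays were nearer to the normal level. With age as a covariate, or with the 5 MPS VII arrays alone, limma called 0 genes. With sex as a covariate, Sfrp1, Fcer1g and Ccn4 were among 19 that passed the threshold, 18 higher and 1 lower. The other named genes among the 18 were Clec4d, Fcgr4, C1qa, C1qb, C1qc, Trem2, Ddah1, Fbln2, Ccn5 and Ccnd1 and, outside the naming rule, P2ry6, Clec4n, Csf2ra and Lat2, and the lower one was Dusp1.

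Macrophage markers lay higher in the dilated aortas. Of 27 genes listed, 21 were measured above background on enough arrays to be tested, and 20 of these had a higher mean. For 17 every dilated array exceeded both not dilated arrays, where 13.7% of all genes did, and for 11 the difference was at least 2-fold, against 0.777%. The median log2 difference of the 21 was 1.01. Their mean log2 level was 9.78, 9.76 and 10.26 in the dilated aortas, 8.68 and 9.16 in the not dilated and 7.66 to 8.14 in the normal ones. The 3 groups were thus ordered with no overlap on this level. Within females the median difference was 1.20 and within males 1.04. It was 0.65 without not dilated replicate 1, the array with the lower macrophage level. None of the 21 passed the threshold in limma.

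Among these markers, receptors and lectins of phagocytes differed most. Trem2, a lipid-sensing receptor of macrophages that signals through Tyrobp, read 758, 866 and 1006 in dilated aortas against 164 and 337 (log2 difference 1.68, SE 0.26, limma adjusted p = 0.13). Normal aortas lay at 36 to 72, so the not dilated arrays were intermediate. Fcgr4, an activating IgG receptor that needs the Fcer1g chain, read 633, 579 and 1105 against 160 and 184 (1.84, SE 0.33, limma adjusted p = 0.178). Clec4d, a C-type lectin of myeloid cells that also signals through that chain, read 244, 358 and 710 against 62.2 and 85.2, and no normal array exceeded background. Lgals3, galectin-3, a carbohydrate-binding protein abundant in activated macrophages, read 7677, 10224 and 8998 against 2561 and 4349, with 880 to 1078 in normal aorta. Adgre1, the F4/80 antigen of mouse macrophages, read 364, 271 and 345 against 79.4 and 216. None of these 5 genes overlapped between the groups, and the rule that named Trem2, Fcgr4, Clec4d and Lgals3 requires this. In Adgre1 the not dilated arrays were themselves the furthest apart. Capg, an actin filament capping protein of macrophages, read 1592, 1832 and 2030 against 767 and 939 (1.05, SE 0.17). Its not dilated arrays lay within the normal range of 746 to 1012. Timd4 was the marker whose mean was lower (log2 difference -0.25), and Cd163 differed by 0.14.

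The promoters of Trem2 and Fcgr4 are shown because both receptors were high in every dilated aorta and both windows hold a myeloid motif. The sequences are the 250 bases before the RefSeq start on assembly GRCm38.p6, Trem2 at chr17:48346151-48346400 and Fcgr4 at chr1:171018676-171018925, both on the plus strand. Capitals mark GAGGAAG, a core bound by the myeloid factor PU.1, which here lies on the opposite strand and so reads CTTCCTC.
Trem2: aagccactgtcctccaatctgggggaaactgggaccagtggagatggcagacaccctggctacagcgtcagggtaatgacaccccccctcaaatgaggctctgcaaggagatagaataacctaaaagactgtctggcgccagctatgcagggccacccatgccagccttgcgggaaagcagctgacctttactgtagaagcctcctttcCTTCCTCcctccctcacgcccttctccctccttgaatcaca
Fcgr4: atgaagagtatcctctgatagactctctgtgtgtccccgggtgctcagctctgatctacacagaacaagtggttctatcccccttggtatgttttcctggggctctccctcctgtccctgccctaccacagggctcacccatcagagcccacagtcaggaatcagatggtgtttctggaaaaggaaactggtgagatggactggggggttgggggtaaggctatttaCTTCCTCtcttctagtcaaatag
The match lay 41 bases before the start in Trem2 and 23 bases before it in Fcgr4. Of the 21 tested macrophage markers, 17 were searched on both strands of such windows, and the motif was found in 7 of the 17 (41.2%). Over the whole promoter table it was found in 3244 of 27025 genes (12%). The table was taken whole and the list was not, so the shares rest on unlike sets and are not strictly comparable. A match describes letters and not a bound site.

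**Figure D2:**
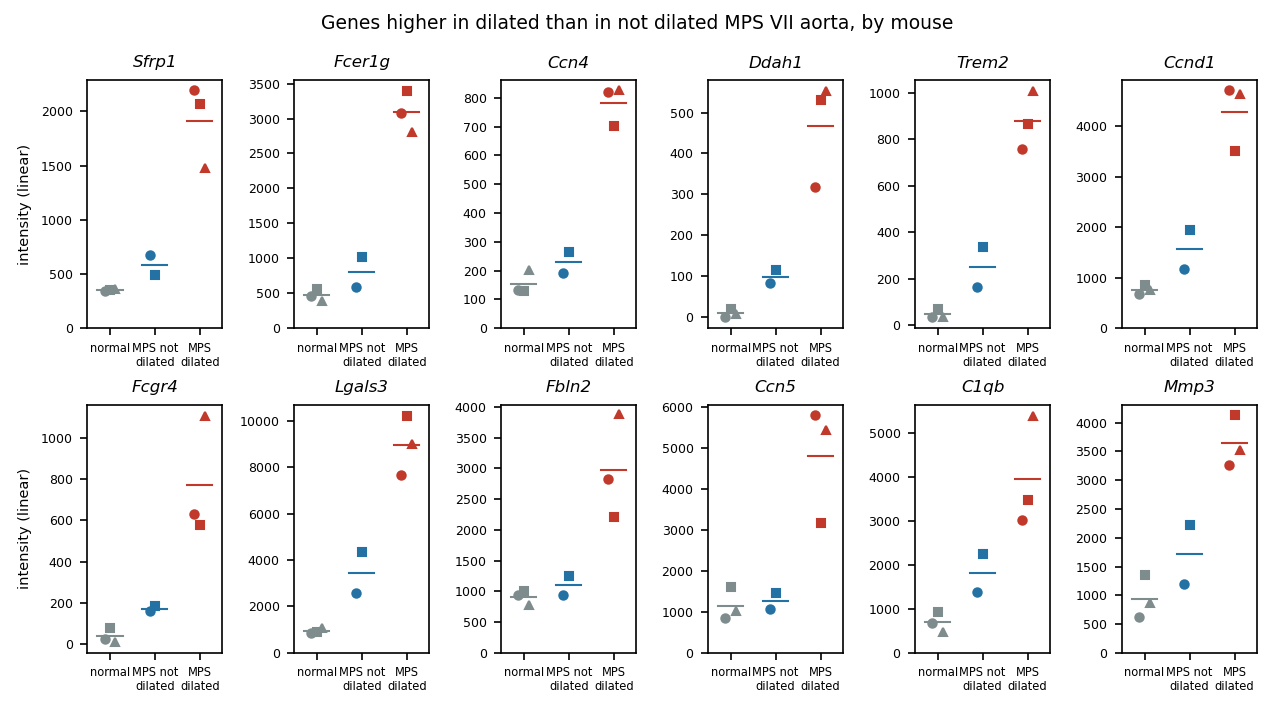
Intensity (linear scale, y axis) of 12 genes in normal, not dilated MPS VII and dilated MPS VII aorta. Each marker is 1 mouse (circle, square and triangle for replicates 1, 2 and 3) and each bar is a group mean. In all 12 panels the 3 dilated arrays lie above the 2 not dilated arrays, which the naming rule requires of most of these genes.

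Early complement components and innate sensors showed the same direction. Complement marks cells and debris for uptake, and C1q, its recognition molecule, is made largely by macrophages. C1qa read 767, 677 and 1141 in dilated aortas against 307 and 406 (log2 difference 1.14, SE 0.23, limma adjusted p = 0.213). C1qb and C1qc, which code for the other chains, differed by 1.10 (SE 0.33) and 1.08 (SE 0.28). The 3 chains lay above all other arrays in every dilated aorta. C4b, the component cleaved next, read 4098, 2547 and 6784 against 1298 and 1902 (1.37, SE 0.36, limma adjusted p = 0.318). Of 20 complement genes listed 11 were tested and 10 had a higher mean. Of the 11, 5 were apart upward and 1 downward (13.7% and 11.4% over all genes), and the median difference of the 11 was 0.87. It lay between 0.62 and 1.16 when 1 array was left out, and was 0.32 with no filter on dim probes and 0.48 with array quality weights. Of 17 tested toll-like receptor, NF-kappa-B and adhesion genes, 6 were apart upward and 1 downward, with a median of 0.27. Tlr7, an endosomal sensor of single-stranded RNA, read 258, 213 and 193 against 97.9 and 116 (0.79, SE 0.16, limma adjusted p = 0.213). Tlr13, a sensor of bacterial ribosomal RNA in mice, differed by 1.03 (SE 0.24), and Tlr7 and Tlr13 were both apart. Cd14, the co-receptor for lipopolysaccharide, read 435, 388 and 1057 against 240 and 260 (1.04, SE 0.34). It was apart as well, with replicate 3 the highest, and differed by 0.62 without that mouse.

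Chemokines fell into those high in every dilated aorta and those high mainly in replicate 3. The Ccl21 genes, whose product draws dendritic cells and T cells to lymphatic vessels, had the widest ratios among them. Ccl21c read 1417, 1211 and 625 in dilated aortas, 251 and 63.7 in not dilated ones, and was not above background in normal aorta (log2 difference 2.54, SE 0.47, limma adjusted p = 0.178). Ccl21a read 3015, 2747 and 1505 against 735 and 185 (2.46, SE 0.61), and Ccl21b differed by 2.5 (SE 0.56). The Ccl21 genes are near-identical copies whose probes may not separate them, so they are best read as 1 signal. The list counts take each gene on its own, so the Ccl21 genes listed enter them separately. Lymph node stroma and thymus markers, Ccl21a among them, had a median of 0.13 over 6 tested genes. A higher mean was found for 3 of these and a lower mean for 3, and only Ccl21a was apart (13.7% upward over all genes). The part of lymph node tissue in the Ccl21 values was not tested. Ccl4, a chemokine for monocytes and T cells, read 230, 366 and 973 against 34.7 and 169 (1.85, SE 0.59), with replicate 3 the highest. Ccl12, a mouse monocyte chemokine, read 97.7, 139 and 1518 against 28.2 and 171, so that 2 of 3 dilated arrays were below the higher not dilated one. Il1b, interleukin 1 beta, was above background on 1 dilated array, replicate 3, at 741, and on not dilated replicate 2, at 39.9. Socs3, a feedback inhibitor of cytokine signalling, read 199, 205 and 1765 against 96.1 and 138 (1.55, SE 0.73, limma adjusted p = 0.58).

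Of 30 chemokines and cytokines listed, 23 were tested and 22 had a higher mean (50.6% over all genes). Of the 23, 9 were apart upward with none downward (13.7% and 11.4% over all genes). The median difference of the 23 was 1.02, and without dilated replicate 3 it was 0.29. By array it was 0.12, 0.35 and 1.73 above the not dilated mean in dilated replicates 1, 2 and 3. The level of this list therefore stood mostly on 1 mouse. Neutrophil markers as a list were also highest in replicate 3. Their median by array was -0.67 and -0.74 in replicates 1 and 2 and 1.23 in replicate 3, and S100a8 read 74.8, 230 and 3459 against 946 and 646. The list's mean log2 level was 6.41, 6.52 and 8.43 in dilated, 7.30 and 7.10 in not dilated and 5.67 to 6.09 in normal aortas. The part of neutrophils in the chemokine values was not tested. Of 14 neutrophil markers listed 9 were tested, 3 with a higher and 6 with a lower mean, and 1 was apart upward and 2 downward. Those 2 code for granule proteins. Ltf, lactoferrin, read 118 and 88.0 there against 13.9, 18 and 30.4 in dilated aortas (log2 difference -1.11, SE 0.18, limma adjusted p = 0.139). Camp, cathelicidin, was not above background on any dilated array (mean 0.218) and had a mean of 40.3 in not dilated aorta, at least 1.19-fold higher there (limma adjusted p = 0.156).

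Markers of other blood cells did not separate the groups as a set. For comparison, 13.7% of all genes were apart upward and 11.4% downward, and 50.6% had a higher mean. T and NK cell markers had a median difference of 0.02, with 1 of 9 tested genes apart upward. Of B and plasma cell markers 2 were measured, neither of them apart. Class II antigen presentation genes, which macrophages can also carry, had a median of 0.12 and 1 of 7 apart. H2-Ab1 read 1760, 1581 and 2508 in dilated and 1221 and 1975 in not dilated aortas (log2 difference 0.29, 95% interval -0.38 to 0.96), so the groups overlapped, and its other 2 probes differed by -0.17 and 0.16. Mast cell markers had a median of -0.51 over 5 tested genes, which was 0.0033 without dilated replicate 1, and none was apart. Lymphatic and mesothelial markers were higher in mean for 9 of 9 tested genes, but their levels overlapped between the groups. The list's mean log2 level was 8.73, 7.65 and 9.0 in dilated and 7.31 and 8.32 in not dilated aortas, and in dilated replicate 2 only 4 of the 9 lay above the not dilated mean. The median of 0.53 ranged from 0.08 without not dilated replicate 1 to 1.15 without not dilated replicate 2. The 2 genes apart were Lyve1 (1.01, SE 0.25), a hyaluronan receptor of lymphatic vessels and some macrophages, and Pdpn (1.00, SE 0.43), podoplanin. Pdpn read 2420, 2680 and 7101 against 1347 and 2307, and its difference was 0.52 without dilated replicate 3.

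Matricellular and wound genes lay higher in the dilated aortas. These secreted proteins bind matrix and growth factors and are made at sites of repair. Of 16 listed 9 were tested and 8 had a higher mean. Of the 9, 6 were apart upward (13.7% over all genes) and 3 by at least 2-fold (0.777%), with a median log2 difference of 0.77. By array the median was 0.87, 0.58 and 0.84 above the not dilated mean, so the 3 mice were close. Ccn5, a relative of Ccn4 that restrains smooth muscle growth in culture, read 5801, 3164 and 5424 against 1074 and 1453, with 839 to 1601 in normal aorta (1.85, SE 0.32, limma adjusted p = 0.156). Its not dilated arrays lay within the normal range. Thbs1, thrombospondin 1, was above background on all 3 dilated arrays and on none of the other 5, at a mean of 62.1 against 13.7, at least 1.46-fold (limma adjusted p = 0.311). Ankrd1, a nuclear protein responsive to mechanical load, read 1138, 477 and 717 against 239 and 426 (1.08, SE 0.38), and it was apart, though by a narrow gap.

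Elastic fibre genes gave a mixed picture. Fbln2, a fibulin that bridges elastic fibres and basement membrane, read 2823, 2214 and 3879 in dilated aortas against 945 and 1254 (log2 difference 1.37, SE 0.23, limma adjusted p = 0.156), and normal aortas lay at 786 to 1013. Lox, the lysyl oxidase that cross-links elastin and collagen, read 4306, 2301 and 3167 against 1468 and 1598 (1.02, SE 0.25, limma adjusted p = 0.301). Its relatives Loxl1 and Loxl2 differed by 0.51 (SE 0.20) and 0.66 (SE 0.15). All 4 were apart. Elastin itself was not: Eln read 11665, 5344 and 5109 in dilated and 5023 and 6292 in not dilated aortas, with 2750 to 3341 in normal ones (0.28, SE 0.32, 95% interval -0.45 to 1.00). Its highest value came from dilated replicate 1, and without that mouse the difference was -0.10. Over the 13 tested elastic fibre genes 4 were apart upward and 1 downward, with a median of 0.29. Over all genes 13.7% were apart upward and 11.4% downward. Collagens were near these shares, with 2 of 14 tested genes apart upward and 1 downward, and had a median of 0.11. Col4a1, a basement membrane collagen chain, was one of those upward (0.68, SE 0.22), and its normal arrays, at 8861 to 10861, overlapped the dilated ones at 7424 to 9047. Comp, a cartilage matrix protein, read 407, 370 and 1143 against 200 and 160 (1.42, SE 0.39).

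Proteases of matrix and lysosome differed less than the matricellular genes. Mmp3, stromelysin 1, which cleaves proteoglycans and activates other metalloproteinases, read 3271, 4136 and 3533 in dilated aortas against 1204 and 2224 (log2 difference 1.12, SE 0.32, limma adjusted p = 0.358). Mmp2, gelatinase A, read 7569, 9262 and 5925 against 4397 and 5218 (0.63, SE 0.19, limma adjusted p = 0.373). Mmp12, the macrophage elastase, read 52.9, 217 and 47.7 against 35.8 and 31.4 (0.73, SE 0.37), and it was not above background in normal aorta. All 3 were apart, and for Mmp12 the difference lay mainly in replicate 2. Of 20 metalloproteinases and relatives listed 14 were tested, and 4 were apart upward (13.7% over all genes) with none downward. The median of the 14 was 0.37, or 0.55 without dilated replicate 1. Timp1, an inhibitor of metalloproteinases, read 4529, 4941 and 26860 against 1932 and 3888 (1.61, SE 0.67, limma adjusted p = 0.531), again with replicate 3 far above the rest. Cathepsins and legumain were higher in mean for 12 of 12 tested genes, of which 3 were apart, with a median of 0.35. Ctsb, cathepsin B, read 14729, 14253 and 16266 against 8392 and 12064 (0.58, SE 0.17), while Ctsk, a collagen- and elastin-degrading cathepsin, overlapped between groups (0.37, SE 0.19).

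Lysosomal genes outside the cathepsins showed small differences. Of 30 tested enzymes and membrane proteins, 12 were apart upward and 2 downward (13.7% and 11.4% over all genes). Their median log2 difference was 0.18 and none was apart by 2-fold. Gusb, whose product is missing in MPS VII, read 190, 218 and 184 in dilated aortas and 112 and 125 in not dilated ones, against 992 to 1172 in normal aorta. The MPS VII groups did not overlap (0.55, SE 0.13, limma adjusted p = 0.301), and both were far below normal. Hexa, the alpha chain of beta-hexosaminidase, read 4009, 4241 and 3151 against 2572 and 2739 (0.50, SE 0.15). Autophagy genes had a median of -0.02 and none of 15 was apart.

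Some signalling and metabolic genes outside these groups were also apart. Ddah1, the enzyme that breaks down asymmetric dimethylarginine, an inhibitor of nitric oxide synthase, read 317, 531 and 552 in dilated aortas against 82.8 and 114 (log2 difference 1.77, SE 0.24, limma adjusted p = 0.0935). No normal array exceeded background for it. Ccnd1, cyclin D1, which drives entry into the cell cycle, read 4720, 3507 and 4643 against 1177 and 1954, with 686 to 852 in normal aorta (1.46, SE 0.22, limma adjusted p = 0.13). Proliferation genes as a list were not shifted alongside it, with a median of 0.05 and 1 of 10 apart upward (13.7% over all genes). Aldh3b1, an aldehyde dehydrogenase that detoxifies lipid aldehydes, read 541, 482 and 608 against 179 and 236 (1.21, SE 0.17, limma adjusted p = 0.119). Edn1, the vasoconstrictor endothelin 1, read 552, 1256 and 415 against 264 and 360 (1.00, SE 0.36, limma adjusted p = 0.472), with replicate 2 the highest. Of the 12 tested Wnt regulators and targets, 2 were apart upward by at least 2-fold (0.777% over all genes), Sfrp1 and Ccn4. The list's median was -0.05.

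Smooth muscle contractile genes did not separate dilated from not dilated aorta. Of 15 tested, 13 had a lower mean in the dilated aortas, but 1 was apart upward and none downward, and the median log2 difference was -0.27. Among all genes 50.6% had a higher mean, 13.7% were apart upward and 11.4% downward. Myh11, smooth muscle myosin heavy chain, read 15664, 12718 and 7142 against 12672 and 15923 (-0.34, SE 0.30, 95% interval -1.01 to 0.34). Acta2, smooth muscle actin, differed by -0.21 (95% interval -0.72 to 0.29) on its brightest probe. The means of the other 2 Acta2 probes were 7484 against 11228 and 4646 against 7622, differences of -0.58 and -0.72, so the probes of this gene disagree in size. Actg2, enteric smooth muscle actin, differed by -0.50 (95% interval -1.38 to 0.38). Myocd, the coactivator that switches on this programme, read 3065, 2060 and 1121 against 2580 and 3080, with normal arrays at 6197 to 6982. On the probes used the groups overlapped for all 4 genes. By array the list's median was 0.14, -0.15 and -0.70 against the not dilated mean, with replicate 3 lowest. Adventitial fibroblast markers had a median of 0.00 and endothelial markers 0.21, with 1 of 17 endothelial genes apart.

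Immediate early genes, which are induced within minutes of a stimulus, included both wide differences downward and 1 upward. Fos, a subunit of the transcription factor AP-1, read 62.4, 87.0 and 207 in dilated aortas, 367 and 540 in not dilated and 735 to 1137 in normal ones (log2 difference -1.65, SE 0.34, limma adjusted p = 0.213). Dusp1, a phosphatase that turns off stress-activated kinases, read 3299, 3351 and 2099 against 9563 and 5774, with 10032 to 14201 in normal aorta (-1.37, SE 0.27, limma adjusted p = 0.213). Zfp36, an RNA-binding protein that speeds decay of cytokine mRNAs, read 1313, 1298 and 1882 against 3077 and 1887 (-0.69, SE 0.24). For all 3, every dilated array lay below the other 5 arrays, and for Zfp36 the gap was narrow. Of the 15 tested genes 6 were apart downward, where 11.4% of all genes were, and 2 upward, one of them Socs3. The median was -0.33, and -0.11 without not dilated replicate 1. Heat shock genes were lower in mean for 11 of 11, with 2 apart and a median of -0.11.

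The promoters of Fos and Dusp1 are shown because these genes had the widest downward differences of the list. Both are the 250 bases before the RefSeq start on GRCm38.p6, Fos at chr12:85473640-85473889 on the plus strand and Dusp1 at chr17:26508473-26508722 on the minus strand. Capitals mark TGACGT, the core of the cyclic AMP response element. In Dusp1 matches on both strands overlap in the second stretch of capitals.
Fos: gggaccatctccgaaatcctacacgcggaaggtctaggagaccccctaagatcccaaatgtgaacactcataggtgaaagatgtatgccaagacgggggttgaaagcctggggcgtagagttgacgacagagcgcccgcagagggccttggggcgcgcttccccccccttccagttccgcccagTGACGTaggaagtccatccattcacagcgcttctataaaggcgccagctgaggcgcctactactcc
Dusp1: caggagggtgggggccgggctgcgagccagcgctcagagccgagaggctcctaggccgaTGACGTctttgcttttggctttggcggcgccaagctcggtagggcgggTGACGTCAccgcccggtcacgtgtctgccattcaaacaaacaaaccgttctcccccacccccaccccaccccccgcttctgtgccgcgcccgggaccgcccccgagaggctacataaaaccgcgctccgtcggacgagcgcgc
The core began 66 bases before the start in Fos and 191 and 143 bases before it in Dusp1. Of the 15 tested immediate early genes 14 were searched, and the core was present in 4 of the 14 (28.6%). It was present in 0 of the 17 macrophage markers searched and in 1971 of 27025 genes of the whole table (7.29%). These shares too rest on unlike sets. A window without these letters says nothing about the factor.

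**Figure D3:**
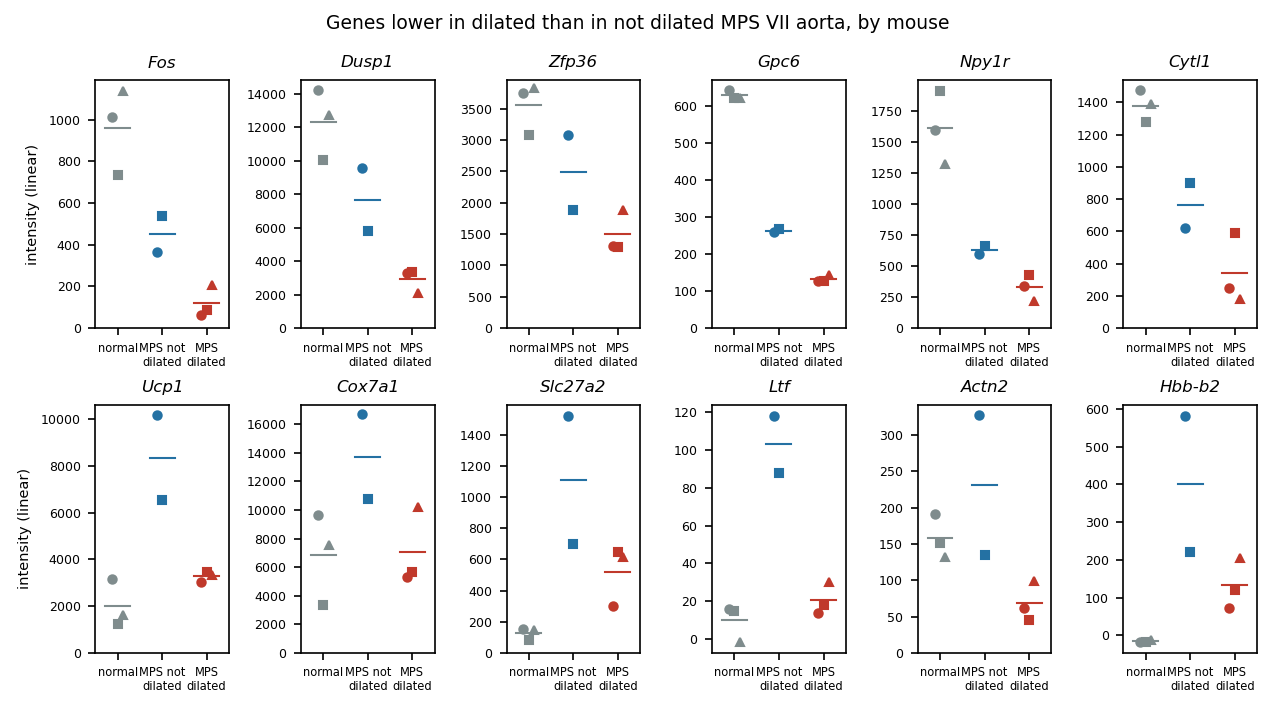
Intensity (linear scale, y axis) of 12 genes in normal, not dilated MPS VII and dilated MPS VII aorta, with 1 marker per mouse (circle, square and triangle for replicates 1, 2 and 3) and bars at group means. In the upper row the dilated arrays are the lowest of all 8, while for Ucp1, Cox7a1, Slc27a2, Ltf and Hbb-b2 the not dilated arrays are the highest.

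Some genes in the dilated aortas lay further from normal than the not dilated aortas did. Gpc6, a cell-surface heparan sulfate proteoglycan, read 126, 127 and 143 in dilated, 258 and 267 in not dilated and 619 to 643 in normal aortas (log2 difference -0.78, SE 0.12, limma adjusted p = 0.13). The spread within each group was small beside the steps between them. Npy1r, a receptor through which neuropeptide Y constricts vessels, read 339, 430 and 217 against 594 and 664, with 1318 to 1911 in normal aorta (-0.88, SE 0.25). Cytl1, a secreted cytokine-like protein of cartilage, read 252, 588 and 183 against 623 and 903, with 1280 to 1475 in normal aorta (-1.17, SE 0.36). Every dilated array was beyond the other 5 upward for 614 genes (6.12%) and downward for 442 (4.4%). Of the 78 genes higher by at least 2-fold, 73 were also above all normal arrays, and for 46 both not dilated arrays lay above all normal ones. For 2 they lay below, and for 30 they overlapped the normal range. Of the 18 lower genes, 6 were below all normal arrays, and for 12 the not dilated arrays lay above all normal ones.

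The downward genes of that last kind included markers of brown fat and of energy metabolism. Ucp1, the uncoupling protein that makes brown adipocytes produce heat, read 3028, 3441 and 3335 in dilated aortas and 10160 and 6514 in not dilated ones, with 1250 to 3155 in normal aorta (log2 difference -1.30, SE 0.34, limma adjusted p = 0.318). The dilated arrays were near the highest normal array and the not dilated ones stood above all others. Brown adipocyte markers had a lower mean for 8 of 8 tested of 11 listed, and 3 were apart downward (11.4% over all genes). The median of these markers was -0.72, or -0.40 without not dilated replicate 1 and -1.14 without not dilated replicate 2. Their mean log2 level was 10.22 to 10.60 in dilated, 11.59 and 10.71 in not dilated and 9.17 to 10.15 in normal aortas. Ucp1, Cidea, Cox7a1, Cox8b, Kcnk3 and Slc27a2 were above background on all 8 arrays. White adipocyte markers, present in the fat around the vessel, had a median of 0.04 with 0 of 13 apart, and a mean log2 level of 10.54 to 11.10 in dilated, 10.47 and 11.22 in not dilated and 9.25 to 9.93 in normal aortas. Adipoq, adiponectin, read 6624, 8448 and 9693 against 10224 and 6125 (0.04, SE 0.40, 95% interval -0.86 to 0.94). The part of fat tissue in the values of this paragraph was not tested.

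Genes of oxidative phosphorylation, the mitochondrial chain that makes ATP, had a lower mean in dilated aorta for 20 of 21 tested, 9 of them apart, where 11.4% of all genes were. Their median was -0.45, and with the mean of the white adipocyte list as a covariate it was -0.38. The white list did not separate the groups, so this covariate could not take out a part of brown fat. Among the MPS VII arrays, the brown adipocyte and oxidative phosphorylation lists were both highest in not dilated replicate 1 and lowest in dilated replicate 1. The part of brown fat in these values was not tested. Sdhb, a subunit of complex II, read 1306, 1433 and 1965 against 3164 and 2074, with 782 to 1132 in normal aorta (-0.71, SE 0.25, limma adjusted p = 0.46). Atp5o, a subunit of ATP synthase, differed by -0.62 (SE 0.24), and Cox6c, of complex IV, by -0.51 (SE 0.17). All 3 were apart. The list's median was -0.79 within females and 0.01 within males. It was -0.22 with age as a covariate and -0.19 without not dilated replicate 1, the female mouse with the highest level of these genes, and -0.69 without not dilated replicate 2. The brown adipocyte median went from -1.29 within females to 0.01 within males. The difference between the sexes was not tested, with 1 male per group.

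Further named genes with a lower mean in the dilated aortas have varied roles. Slc25a34, a mitochondrial carrier, read 286, 296 and 151 against 488 and 634 (log2 difference -1.08, SE 0.26, limma adjusted p = 0.301). Slc25a42, which carries coenzyme A into mitochondria, differed by -1.10 (SE 0.29), and Perm1, a regulator of mitochondrial genes in muscle, by -1.01 (SE 0.27). Kng2, a kininogen, read 84.5, 66.8 and 165 against 352 and 200 (-1.08, SE 0.28), and Sgk2, a serum- and glucocorticoid-inducible kinase, differed by -1.04 (SE 0.32). Actn2, an actinin of the striated-muscle Z disc, read 62.2, 45.7 and 98.5 against 328 and 136 (-1.18, SE 0.30, limma adjusted p = 0.307). Cardiomyocyte markers had a median of -0.23 over 7 tested genes, with 2 apart downward (11.4% over all genes). Those were Myl3, a ventricular myosin light chain, and Myh6, the alpha myosin heavy chain, and neither was above background on any dilated array. The ratios were at least 1.62-fold and 1.34-fold, on means of 72.8 and 51.1 in not dilated aorta against 11.9 and 12.1 (limma adjusted p = 0.213 for each). Hbb-b2, a beta globin, read 71.8, 119 and 205 against 581 and 220 (-1.25, SE 0.37, and -0.64 without not dilated replicate 1). It was above background on no normal array, whereas Hba-a1, an alpha globin outside the naming rule, read 34327 to 48443 there, so the globin probes do not run in parallel. Erythroid markers were lower in mean for 4 of 4 tested, with 1 apart, at a mean log2 level of 8.63 to 10.11 in dilated, 10.99 and 9.76 in not dilated and 9.23 to 9.66 in normal aortas. Cardiomyocyte markers lay at 6.55 to 7.13, at 7.05 and 7.35, and at 6.99 to 7.07. The part of blood or heart RNA in the results was not tested.

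**Figure D4:**
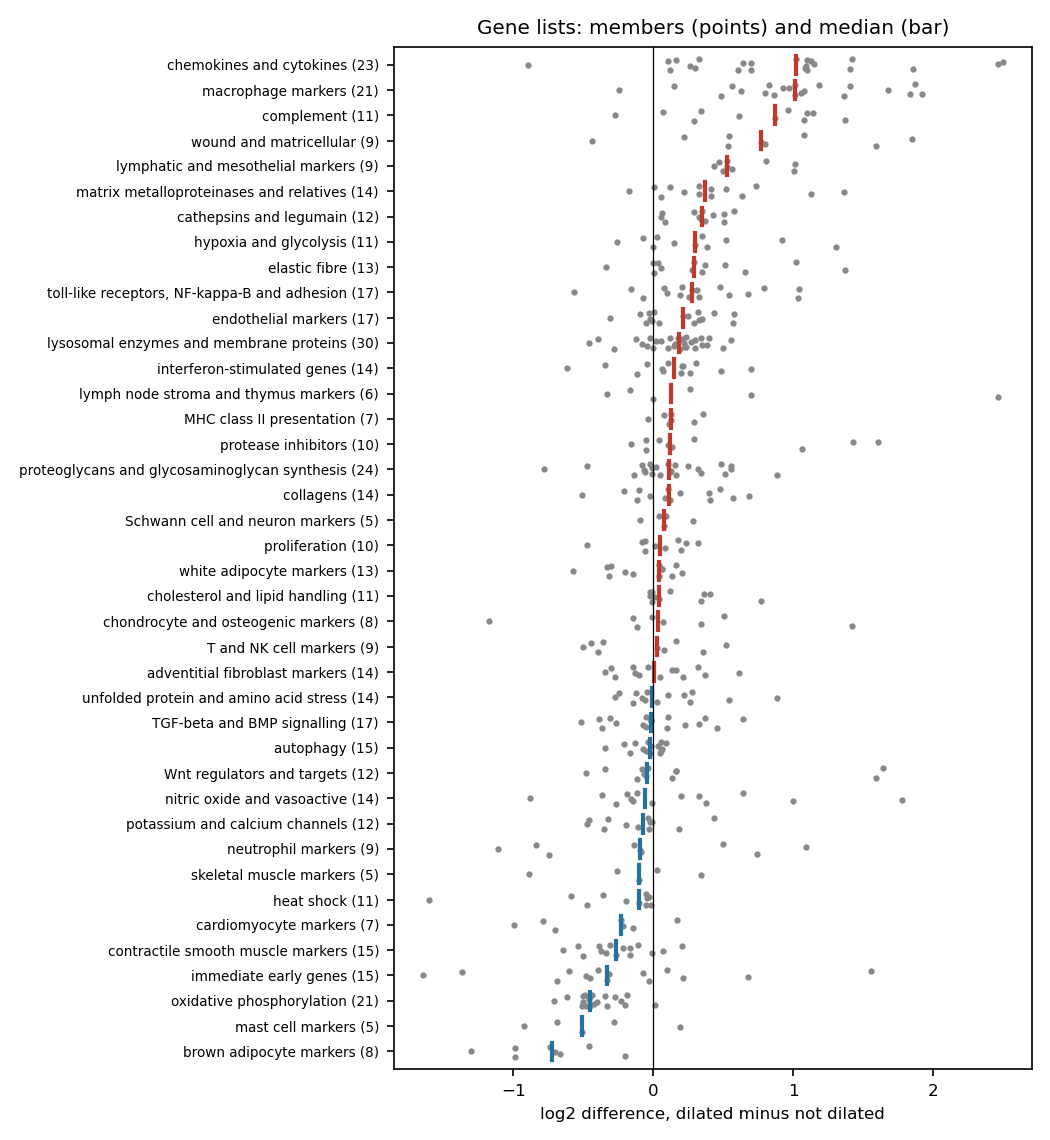
Log2 difference (dilated minus not dilated, x axis) of the tested members of each gene list with 5 or more of them (grey points), with the list's median as a bar, red above 0 and blue below. The number tested stands in parentheses, and chemokines, macrophage markers, complement and matricellular genes have the highest medians, brown adipocyte markers the lowest.

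The dilated aortas also differed among themselves. Across genes, the Pearson correlation of log2 values was 0.987 for dilated replicates 1 and 2, 0.971 for 1 and 3 and 0.975 for 2 and 3, and 0.979 for the 2 not dilated arrays. Not dilated replicate 2 correlated at 0.983 and 0.985 with dilated replicates 1 and 2. These values are across genes, which are not independent, and they share the arrays' common distribution. Genes differing at least 2-fold numbered 139 between dilated replicates 1 and 2, 364 between 1 and 3 and 302 between 2 and 3, against 245 between the not dilated arrays and 171 to 472 between a dilated and a not dilated array. Dilated replicate 3, the male and the youngest of the group, was the most extreme dilated array for 47 of the 78 higher genes, replicate 1 for 20 and replicate 2 for 11. Among the 18 lower genes the counts were 5 for replicate 3, 9 for replicate 1 and 4 for replicate 2. For Fcer1g, Sfrp1, Ccn4 and Trem2 the female differences were 2.36, 1.59, 1.75 and 2.00 and the male ones 1.42, 1.51, 1.48 and 1.45. These genes were named because their groups do not overlap, which fixes the sign within each sex. For Fos the female difference was -1.75 and the male one -1.20, and for Dusp1 they were -1.51 and -1.44, with the sign fixed in the same way. Leaving out 1 array moved some differences by over 1.5 times. Without dilated replicate 3 the log2 difference was 0.77 for Timp1, 0.60 for Socs3, 0.35 for Ccl12 and 0.94 for Comp, and without dilated replicate 2 it was 0.26 for Mmp12 and 0.56 for Edn1. Not dilated replicate 1 bore on more of the named genes. Without it the difference was 0.49 for Adgre1, 1.17 for Ccl4, 0.69 for Mmp3, 0.32 for Ctsb, 0.31 for Col4a1, -0.34 for Zfp36, -0.41 for Sdhb, -0.67 for Actn2, -0.66 for Slc25a42 and -0.68 for Sgk2. Without not dilated replicate 2 it was 1.60 for Ccl21a, 1.53 for Adgre1, 1.05 for Col4a1 and -1.04 for Zfp36, without dilated replicate 1 it was -0.41 for Atp5o and 0.34 for Loxl1, and without dilated replicate 2 it was 0.20 for Ctsk.

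**Figure D5:**
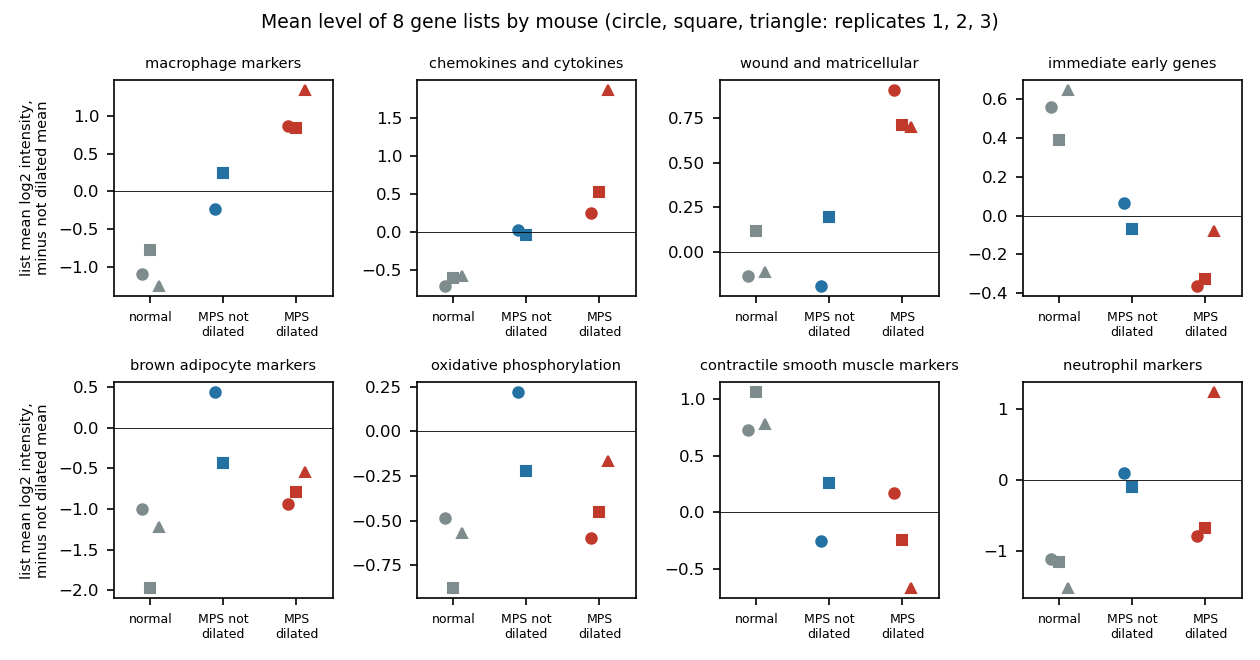
Mean log2 intensity of 8 gene lists by mouse, minus the mean of the not dilated arrays (y axis, log2 units), in normal, not dilated MPS VII and dilated MPS VII aorta. Macrophage and matricellular lists place all 3 dilated arrays above the rest, chemokines and neutrophil markers stand highest in dilated replicate 3, and oxidative phosphorylation stands highest in not dilated replicate 1.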

How the data were processed

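Total RNA from the ascending aorta was measured on Illumina arrays, 1 per mouse. The deposited values are intensities of 25697 probes, processed by the authors before deposit. GenomeStudio and Partek are tools listed, per the submitters' processing notes, without their roles, and the steps are not given in the sources used. On each array 27.8% to 28.0% of values lay below 0, and sorted values differed between arrays by at most 0.94, so total RNA cannot be compared. A second table was not used, since 16 of its columns match no single sample.

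An offset of 50 was added before log2, which understates the change of dim genes. Background was 25.6, the one-sided 0.01 bound of noise with an SD of 11.0 taken from values below 0. Probes above it on at least 2 of 8 arrays were kept (12913), and the probe with the highest mean stood for each gene (8955 named genes and 1085 probes without a symbol). The platform annotation gives 1 symbol for 23141 probes and none for 2556. Of 59 further probes of 47 named genes, 50 had the sign of the probe used. limma 3.58.1 in R 4.3.3 fitted a mean per group to all 8 arrays (5 residual and 4.05 prior degrees of freedom). A group with no array above background has only a bound, and its ratio, given as at least N-fold, sets the other group's mean log2 value against the dim group's mean log2 value, each array taken at its own value or at the background bound, whichever is higher. Each mouse is 1 replicate, and the number of arrays limits the precision.

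Genes were named by rule: the 12 in each direction with the smallest p among those apart by at least 2-fold, the 6 in each direction furthest beyond the other 5 arrays, the first 2 and up to 4 most different members of each list, and Gusb. Genes outside it are marked where named, apart from single list members given as exceptions, which were chosen after their values were seen. The comparison, lists and rule were chosen with earlier results of these data known. On simulated data with 200 changed genes among 10040, limma recovered 65% of genes changed by log2 1, with 10 of 140 calls false, and 96% of those changed by log2 2. The simulated noise was independent between genes and the spreads were shuffled among genes, so these rates need not hold for the real arrays. Alternatives were other offsets, a floor, filters, all probes, cyclic loess, array weights, a variance trend, age, sex or adipocyte level as a covariate, the replicate number as a block, the 5 MPS VII arrays alone and each array left out.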

Additional observations from a re-analysis of the deposited data

How the results depend on the processing

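The count of genes past the threshold, 0 in the values reported, was 3 with an offset of 100 or with array quality weights, 4 with no filter on dim probes, 1 with the adipocyte list mean as a covariate and 19 with sex as a covariate. It stayed at 0 under the other alternatives that kept all arrays, and with the 5 MPS VII arrays alone the smallest adjusted p was 0.454. Leaving out 1 array gave 0 to 3 genes: 3 without dilated replicate 1 (Ddah1 and, outside the naming rule, Scg2 and AA467197), 1 without dilated replicate 3 (Sfrp1) and 2 without not dilated replicate 2 (Fcer1g and, outside the rule, Casp4). With a single not dilated array left, that array is assumed to vary like the other groups.

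The 78 genes higher by at least 2-fold were 154 with an offset of 16, 192 with a floor of 16 and 120 with age as a covariate, and 62 to 190 with 1 array left out. The 18 lower genes were 43, 8 and 60 with an offset of 16, an offset of 100 and the floor, and 18 to 108 with 1 array left out. Genes beyond the other 5 arrays were 651 to 941 upward and 474 to 975 downward with 1 array left out, and 686 downward with no filter. A smaller group is passed by more genes by construction, and the other causes were not tested.

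Of 40 gene lists, the sign of the median turned under at least 1 alternative for 21, whose reported medians ran from -0.51 to 0.15. It turned under 10 for unfolded protein genes, 7 for Wnt genes and 6 each for T and NK cell and white adipocyte markers, and it held under all for the other 19. Among named genes the directions that turned were those of S100a8 (0.97 with age as a covariate, -2.15 to 0.25 with 1 array left out), Adipoq (-0.046 with sex as a covariate, -0.32 to 0.41), Eln (-0.10 to 0.49), Il1b (-0.11 to 1.73) and H2-Ab1 (-0.046 to 0.63). The lowest values of Eln, Il1b, H2-Ab1 and Adipoq came without dilated replicate 1, dilated replicate 3, not dilated replicate 1 and not dilated replicate 2, and Adipoq was -0.081 without dilated replicate 3. The highest value of S100a8 came without dilated replicate 1. The cause was not tested. The replicate numbers share only a number, with deviations of same-numbered dilated and not dilated arrays correlating at -0.15 and 0.0019. With them as a block limma called 0 genes, 70 lay higher and 24 lower by at least 2-fold, and Adipoq was at -0.087.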

Other observations

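The genes of this paragraph belong to none of the lists and were chosen after their values were seen. Esm1, a proteoglycan secreted by activated endothelium, read 560, 6085 and 1099 in dilated aortas, 162 and 267 in not dilated and 138 to 484 in normal ones (log2 difference 2.65, SE 0.84, limma adjusted p = 0.414), and replicate 2 held most of the difference. Scg2, secretogranin II, a secretory granule protein of nerve and endocrine cells, read 49.6, 142 and 225 in dilated aortas and was above background on none of the other 5 arrays. Its ratio over the not dilated group was at least 2.30-fold (limma adjusted p = 0.213). AA467197 read 303, 1405 and 1333 against 160 and 121, with 5.48 to 65.0 in normal aorta (2.24, SE 0.57, limma adjusted p = 0.311). Casp4, the inflammatory caspase that senses intracellular lipopolysaccharide, read 353, 340 and 230 against 3.21 and 222, with 145 to 237 in normal aorta, so that not dilated replicate 1 alone lay low.

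The stress, repair and interferon lists not described above showed little separation. Unfolded protein response genes had a median log2 difference of -0.01 with 1 of 14 apart upward. TGF-beta and BMP signalling genes had a median of -0.02 with 2 of 17 apart upward and 3 downward. Interferon-stimulated genes had a median of 0.15 with 2 of 14 apart upward and 1 downward. Over all genes 13.7% were apart upward and 11.4% downward. Hypoxia and glycolysis genes had a median of 0.30 with 0 of 11 apart, and 0.10 without dilated replicate 2.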
